A study of Homo sapiens and Mus musculus with 28 samples.

Results

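Genes whose products drive cells into mitosis, build the spindle, attach chromosomes to it and split the daughter cells were followed through every library of a study on REXO4, an RNA exonuclease, in head and neck carcinoma of squamous type (HNSCC). The 44 members were listed by name and matched to the files by gene symbol, ignoring case. All 44 were found among the 35135 human gene IDs, and 43 among the 32138 mouse IDs, where no row carries the symbol KIF4A. All 44 human and 43 mouse members also passed the filter on low counts, so no member was lost to it. They fall into 8 role groups: 7 genes of mitotic entry, 9 of spindle kinases and spindle assembly, 4 of the chromosomal passenger complex, 4 of the spindle assembly checkpoint, 7 of the centromere and kinetochore, 3 of the anaphase-promoting complex with securin, 4 of chromosome structure and chromosome kinesins, and 6 of cytokinesis.

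The study holds 28 RNA-seq libraries in 10 groups: 24 of SCC1, a human cell line established from this cancer, and 4 of autochthonous mouse HNSCC tumors. The first SCC1 experiment held 15 libraries, 3 each of REXO4-knockout KO_2 cells with BX_795, KO_2 cells with H151, knockout cells R4KO_2 with vehicle, knockout cells R4KO_1 with vehicle, and Ctrl cells with vehicle. The second, whose labels name no knockout, held 9 libraries, 3 each of cells labelled H151_iR4, cells labelled iR4, and Vehicle cells. The tumors were 2 with Rexo4 knocked out (R4KO) and 2 wild-type (Wt).
H-151 is a covalent inhibitor of STING, the adaptor that relays cytosolic DNA sensing, and BX-795 inhibits TBK1, the kinase downstream of STING, along with other kinases. The labels do not say what iR4 is, nor whether R4KO_1 and R4KO_2 are single clones, nor doses, treatment times, the mouse allele or the age of the animals. What separates replicates is not stated either, and p-values therefore measure only the spread between these libraries, which may be technical.

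In the normal cell cycle the mitotic genes are kept silent in quiescence and G1, are transcribed in S phase and G2, and peak as cyclin B with CDK1 starts mitosis. Their promoters are known for a CHR element, bound by the repressor complex DREAM and the activating MuvB complexes, and for CCAAT boxes, bound by NF-Y. The p53 target CDKN1A (p21) inhibits cyclin-dependent kinases, and its rise is known to favour assembly of DREAM at these genes. In squamous carcinoma the same genes mark the dividing cells of the tumor.

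To show what the members share in sequence, the window from 250 bases before to 50 bases after the first listed start of each gene was taken from RefSeq (GRCh38.p14), which held 38 of the 44 members. FOXM1, AURKA, TPX2, TTK, BIRC5 and UBE2C were not in the table. The first 4 windows printed below belong to the members with the largest mean size of change over R4KO_1, R4KO_2 and iR4, and the last 2 to CDK1 and SPC25, which did not pass the test there. Sequences read 5′ to 3′ along the gene, and capitals mark CHR-type letters (TTTGAA or TTCGAA) and CCAAT on either strand, where they read TTCAAA or TTCGAA and ATTGG on the other strand and may overlap each other.
PLK1, chr16:23678639-23678938, plus strand: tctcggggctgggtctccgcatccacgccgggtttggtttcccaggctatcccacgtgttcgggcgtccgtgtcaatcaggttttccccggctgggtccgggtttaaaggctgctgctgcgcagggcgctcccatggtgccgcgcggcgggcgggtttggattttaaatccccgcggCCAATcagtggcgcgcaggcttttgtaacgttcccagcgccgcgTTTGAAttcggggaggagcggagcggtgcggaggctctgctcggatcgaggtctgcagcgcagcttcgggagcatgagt
CDC20, chr1:43358731-43359030, plus strand: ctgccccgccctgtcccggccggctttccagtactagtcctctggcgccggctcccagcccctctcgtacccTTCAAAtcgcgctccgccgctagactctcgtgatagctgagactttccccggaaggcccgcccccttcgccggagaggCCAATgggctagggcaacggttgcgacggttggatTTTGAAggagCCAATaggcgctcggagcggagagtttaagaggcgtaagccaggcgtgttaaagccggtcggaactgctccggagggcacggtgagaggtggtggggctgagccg
CCNB1, chr5:69166900-69167199, plus strand: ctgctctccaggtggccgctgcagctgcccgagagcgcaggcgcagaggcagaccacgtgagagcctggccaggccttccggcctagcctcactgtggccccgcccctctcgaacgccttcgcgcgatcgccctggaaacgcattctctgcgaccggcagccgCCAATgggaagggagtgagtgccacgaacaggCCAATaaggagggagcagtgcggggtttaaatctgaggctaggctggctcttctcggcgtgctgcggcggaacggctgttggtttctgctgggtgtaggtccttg
HMMR, chr5:163460382-163460681, plus strand: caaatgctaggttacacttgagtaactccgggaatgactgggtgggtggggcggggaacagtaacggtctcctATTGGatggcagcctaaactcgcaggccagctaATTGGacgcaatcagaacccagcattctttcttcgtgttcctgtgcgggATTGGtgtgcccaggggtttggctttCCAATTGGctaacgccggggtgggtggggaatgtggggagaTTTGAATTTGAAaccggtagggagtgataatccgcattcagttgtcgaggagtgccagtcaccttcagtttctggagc
CDK1, chr10:60778081-60778380, plus strand: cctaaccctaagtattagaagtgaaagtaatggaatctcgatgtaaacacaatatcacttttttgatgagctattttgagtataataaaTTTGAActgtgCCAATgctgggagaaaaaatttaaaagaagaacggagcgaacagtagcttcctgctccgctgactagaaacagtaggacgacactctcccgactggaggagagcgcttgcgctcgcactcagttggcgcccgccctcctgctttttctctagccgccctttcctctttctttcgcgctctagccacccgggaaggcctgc
SPC25, chr2:168890381-168890680, minus strand: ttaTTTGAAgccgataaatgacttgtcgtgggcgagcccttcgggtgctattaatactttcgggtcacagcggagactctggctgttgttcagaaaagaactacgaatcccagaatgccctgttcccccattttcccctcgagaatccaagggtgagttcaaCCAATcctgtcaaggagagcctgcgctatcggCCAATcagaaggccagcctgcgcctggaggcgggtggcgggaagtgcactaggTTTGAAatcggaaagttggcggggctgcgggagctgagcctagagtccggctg
TTTGAA on either strand was in 26 of the 38 member windows (68.42%), against 15.4% of the windows of 27305 genes. CCAAT was in 30 windows (78.95%), against 35.7%, and at least 2 copies of it in 19 windows (50%), against 11.3%. A CHR-type match together with CCAAT was in 23 (60.53%), against 6.58% of all genes. Set against the change in R4KO_1 cells, 24 of the 27 with a CHR-type match and 9 of the 11 without one fell, with median log2 fold changes of -0.61 for those with a match and -0.43 for those without. In R4KO_2 cells the same numbers fell, with medians of -0.56 with a match and -0.50 without. In iR4 cells 25 of the 27 and 9 of the 11 fell, with medians of -0.53 with a match and -0.33 without. CCNB1 has no match to TTTGAA or TTCGAA in its window and CDK1 has 1, which says only that these letters are or are not there. Only these forms were searched, so a window without a match is not shown to lack a CHR element.

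The targeted gene was looked at first. REXO4 stood at 5.03 to 7.11 CPM (read counts scaled to library size with TMM factors within each experiment) in R4KO_2, at 9.33 to 9.99 in R4KO_1 and at 71.9 to 77.9 in Ctrl, so both knockouts lay far below the control. KO_2 cells with BX_795 or H151 held 17.01 to 19.8 CPM, above every R4KO_2 library. The second experiment had REXO4 at 87.0 to 91.0 CPM in H151_iR4, 56.9 to 61.9 in iR4 and 90.1 to 96.4 in Vehicle. Library totals ran from 16.04 M to 27.94 M counts in SCC1 and from 16.73 M to 18.19 M counts in the tumors. In the knockout experiment, KO_2 libraries with an inhibitor held 21.36 M to 27.94 M counts, against 17.47 M to 18.03 M with vehicle. All 10 squamous markers were detected in every SCC1 library, and their summed level differed between groups: 2387 to 3012 CPM in the 6 KO_2 libraries with an inhibitor, 3179 to 3865 in the 6 knockout libraries with vehicle, and 4642 to 4933 in Ctrl. The 9 leukocyte markers summed to at most 1.40 CPM and the 5 endothelial markers to at most 1.07 CPM in the knockout experiment, with CD8A, MS4A1 and PDGFRA at 0 in all 15 libraries. Low sums of other lists also differed between groups. The 7 fibroblast markers, of which 3 to 6 were detected in a library, summed to 38.2 to 47.8 CPM with an inhibitor, 39.1 to 43.2 CPM in the knockouts with vehicle and 23.9 to 24.6 CPM in Ctrl, most of it COL1A1. The 7 skeletal muscle markers, of which 5 to 7 were detected, summed to 22.6 to 24.9 CPM with an inhibitor, 49.7 to 65.1 CPM in the knockouts with vehicle and 30.4 to 34.2 CPM in Ctrl, most of it TTN and TNNT3, so this sum moved opposite to the members. The part of these differences in the results on the members was not tested.

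In Ctrl cells the members spanned a wide range of levels. Per kilobase of exon, CDC20, an activator of the anaphase-promoting complex, was highest at 205.4 CPM per kb, followed by UBE2C, the ubiquitin-conjugating enzyme of that complex, at 190.1 and CCNB1, cyclin B1, at 168.3. The lowest were CENPE, a kinetochore motor, at 13.9 CPM per kb and CDC25C, a phosphatase that activates CDK1, at 8.98. Across the 44 members Spearman's rho between the level per kb in Ctrl and the log2 fold change was 0.04 for R4KO_1, -0.16 for R4KO_2 and -0.10 for iR4. With the level taken as CPM, not per kb, rho was -0.07 for R4KO_1, -0.25 for R4KO_2 and -0.31 for iR4. For the knockouts both measures share the Ctrl libraries, and genes are not independent replicates.

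The knockout comparisons asked which genes differ when REXO4 is lost. Most of the list was lower. In R4KO_1 against Ctrl, 39 of the 44 members fell and 1 rose by edgeR's quasi-likelihood test (Benjamini-Hochberg adjusted p under 0.05), where 31.4% of the 14348 genes tested fell and 33.0% rose. In R4KO_2 against Ctrl, 39 fell and 2 rose, where 32.2% of all genes fell and 34.0% rose. The members' median log2 fold change was -0.51 in R4KO_1 and -0.56 in R4KO_2, beside 0.02 over all genes in each. The fall reached 2-fold for 7 members in R4KO_1 and 6 in R4KO_2, so most members moved by less. Changes of single genes are given as log2 fold changes, with SE where stated. Summed over the members, R4KO_2 libraries held 6037 ± 91.4 CPM and R4KO_1 libraries 6292 ± 296.5 CPM, against 9214 ± 234 CPM in Ctrl (SD, n = 3 each). The knockouts share the Ctrl libraries, so their values are given side by side and not as independent repeats. In a bulk library fewer dividing cells and less mitotic RNA per cell cannot be told apart.

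**Figure D1:**
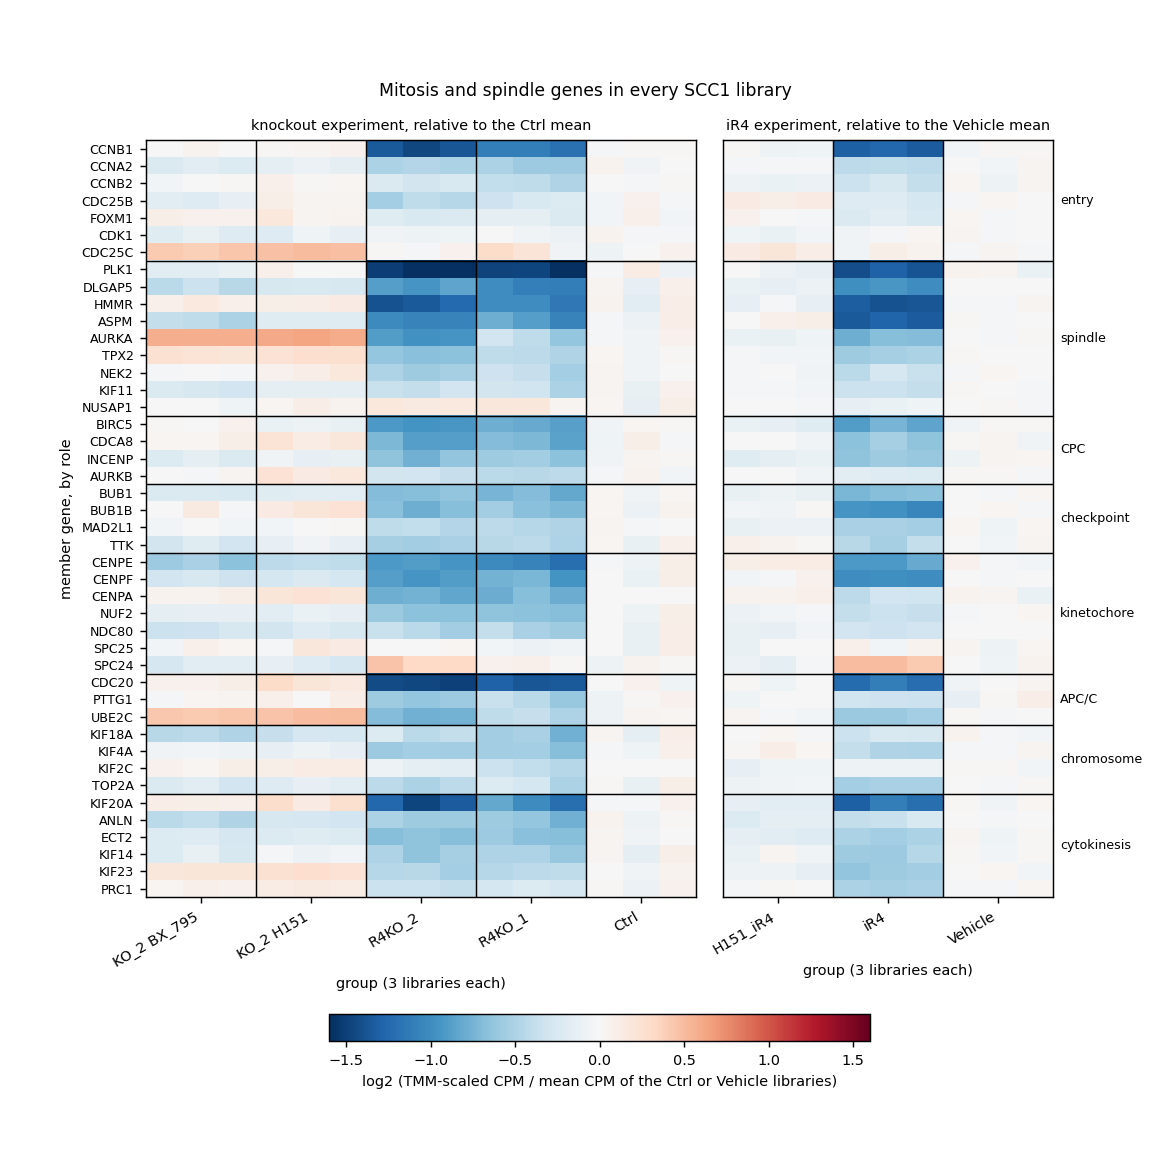
Level of each of the 44 members in every SCC1 library, as log2 of TMM-scaled CPM over the mean of the 3 Ctrl libraries (left) or the 3 Vehicle libraries (right), with members on the vertical axis in role blocks and libraries on the horizontal axis by group. Most members are blue in R4KO_2, R4KO_1 and iR4 and near white with H151 or BX_795, while CDK1, SPC25, SPC24, NUSAP1 and CDC25C do not follow.

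Among genes of mitotic entry, 5 of 7 fell in each knockout. CCNB1 (cyclin B1, ENSG00000134057, chr5:69167010-69178245, plus strand, GRCh38), the partner of CDK1 at the start of mitosis, was at 170, 157 and 167 CPM in R4KO_2 and 200.4, 199.8 and 188.8 CPM in R4KO_1, against 420.8, 436.0 and 435.0 CPM in Ctrl. Every knockout library lay below every Ctrl library. The log2 fold change was -1.39 ± 0.04 in R4KO_2 (SE, adjusted p = 1.42e-17) and -1.13 ± 0.04 in R4KO_1 (adjusted p = 5.33e-16). CCNA2, cyclin A2, which acts in S phase and early mitosis, fell less, at -0.50 ± 0.04 in R4KO_2 and -0.56 ± 0.04 in R4KO_1 on the log2 scale. FOXM1, a transcription factor that activates many of these genes, fell, at -0.22 in R4KO_2 and -0.18 in R4KO_1. CCNB2, cyclin B2, was at -0.26 in R4KO_2 and -0.42 in R4KO_1, and CDC25B at -0.47 in R4KO_2 and -0.26 in R4KO_1, and both fell in each. CDK1, the mitotic kinase itself, did not pass the test in either knockout: it was at 264 to 268 CPM in R4KO_2 and 259.9 to 277.8 CPM in R4KO_1, against 272 to 289 CPM in Ctrl, with log2 fold changes of -0.07 ± 0.04 in R4KO_2 and -0.05 ± 0.04 in R4KO_1. CDC25C did not pass either, at 0.02 ± 0.07 in R4KO_2 and 0.16 ± 0.07 in R4KO_1.

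The spindle group held the member with the largest fall. PLK1 (ENSG00000166851, chr16:23677656-23690367, plus strand), a kinase needed for spindle assembly, centrosome maturation and cytokinesis, was at 71.8, 66.1 and 66.7 CPM in R4KO_2 and 73.2, 73.8 and 63.7 CPM in R4KO_1, against 199.9, 221.6 and 191.9 CPM in Ctrl. The knockout values formed one narrow range well apart from Ctrl. Its log2 fold change was -1.58 ± 0.06 in R4KO_2 (adjusted p = 9.59e-16) and -1.54 ± 0.06 in R4KO_1 (adjusted p = 2.41e-15). HMMR, a spindle-associated protein, fell, at -1.32 ± 0.06 in R4KO_2 and -1.04 ± 0.06 in R4KO_1. DLGAP5, a microtubule-binding protein of the spindle, fell, at -0.89 in R4KO_2 and -1.06 in R4KO_1, and ASPM fell, at -1.05 in R4KO_2 and -0.90 in R4KO_1. AURKA, TPX2, NEK2 and KIF11 fell too, between -0.94 and -0.35 over both knockouts. NUSAP1, which bundles spindle microtubules, was the only gene of this group to rise, at 299.9 to 305.2 CPM in R4KO_2 and 280.1 to 309.2 CPM in R4KO_1, against 248.4 to 288.7 CPM in Ctrl. The R4KO_1 and Ctrl ranges of NUSAP1 overlapped, with log2 fold changes of 0.16 in R4KO_2 and 0.14 in R4KO_1. The rise of NUSAP1 in R4KO_1 was lost without replicate 2 of Ctrl, without replicate 2 of R4KO_1, and in a fit of these 6 libraries alone. In GENCODE v29, 62.2% of the exon bases of NUSAP1 are shared with AC087721.2 on the same strand, and 57.6% of those of PRC1, a spindle midzone protein, with AC068831.7, so both values are uncertain.

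Every gene of the chromosomal passenger complex and of the spindle assembly checkpoint fell in both knockouts. BIRC5 (survivin), which brings the complex to centromeres, was at 128, 124 and 127.5 CPM in R4KO_2 and 141, 138 and 132 CPM in R4KO_1, against 233, 248 and 247 CPM in Ctrl, and the groups did not overlap. Its log2 fold change was -0.94 ± 0.04 in R4KO_2 and -0.82 ± 0.04 in R4KO_1. CDCA8 (borealin), its partner, fell, at -0.82 in R4KO_2 and -0.75 in R4KO_1, while AURKB, the kinase of the complex, fell, at -0.32 in R4KO_2 and -0.43 in R4KO_1. INCENP, the scaffold of the complex, fell, at -0.68 in R4KO_2 and -0.59 in R4KO_1. In the checkpoint, which holds back anaphase until chromosomes are attached, BUB1 fell, at -0.67 in R4KO_2 and -0.75 in R4KO_1, and BUB1B (BubR1), which binds and restrains CDC20, at -0.71 in R4KO_2 and -0.65 in R4KO_1. MAD2L1, which holds CDC20 inactive, and TTK, the kinase at the head of the checkpoint, fell between -0.54 and -0.42 over both knockouts.

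At the kinetochore, 5 of 7 genes fell in each knockout. CENPE (ENSG00000138778, chr4:103105806-103198409, minus strand), a motor that carries chromosomes to the spindle equator, was at 69.4, 70.8 and 68.1 CPM in R4KO_2 and 64.7, 62.6 and 57.0 CPM in R4KO_1, against 129.5, 124.2 and 140.1 CPM in Ctrl. All 6 knockout libraries lay far below Ctrl, with log2 fold changes of -0.92 ± 0.05 in R4KO_2 and -1.10 ± 0.05 in R4KO_1. CENPF, a large protein of the outer kinetochore, fell, at -0.91 in R4KO_2 and -0.81 in R4KO_1, and CENPA, the histone H3 variant that marks centromeres, at -0.79 in R4KO_2 and -0.76 in R4KO_1. The NDC80 complex, which grips microtubules, split: NDC80 and NUF2 fell, at -0.45 and -0.63 in R4KO_2, SPC25 was at 0.01 ± 0.06 and SPC24 rose by 0.37 ± 0.05. In R4KO_1, SPC25 at -0.06 ± 0.07 and SPC24 at 0.05 ± 0.05 did not pass the test. In GENCODE v29, 18 of the 44 members share exon bases with another gene, 15 of them with a gene on the other strand. No source used here gives the strand setting of the counting, so reads of such pairs cannot be told apart.

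Regulators of anaphase fell as well. CDC20 (ENSG00000117399, chr1:43358955-43363203, plus strand) was at 155, 153 and 148 CPM in R4KO_2 and 170.3, 161.9 and 164.9 CPM in R4KO_1, against 417, 438 and 401 CPM in Ctrl, with no overlap. Its log2 fold change was -1.46 ± 0.04 (adjusted p = 2.46e-17) in R4KO_2 and -1.34 ± 0.04 (adjusted p = 1.65e-16) in R4KO_1. UBE2C fell, at -0.74 in R4KO_2 and -0.42 in R4KO_1, and securin, PTTG1, the inhibitor of separase, at -0.59 in R4KO_2 and -0.46 in R4KO_1. PTTG1 has close copies elsewhere in the genome, which can make its count uncertain.

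All 4 genes of chromosome structure and chromosome kinesins and all 6 of cytokinesis fell in both knockouts. KIF20A (ENSG00000112984, chr5:138178719-138187715, plus strand), a kinesin of the central spindle that ferries Aurora B in anaphase, was at 100.1, 86.5 and 95.1 CPM in R4KO_2 and 135, 118.5 and 103 CPM in R4KO_1, against 233.4, 232.6 and 249.7 CPM in Ctrl. Its log2 fold change was -1.35 ± 0.07 in R4KO_2 and -1.003 ± 0.07 in R4KO_1. ECT2, which activates RhoA for the contractile ring, fell, at -0.67 in R4KO_2 and -0.64 in R4KO_1. KIF4A, a chromosome-bound kinesin, fell, at -0.56 in R4KO_2 and -0.60 in R4KO_1, and TOP2A, the topoisomerase that untangles sister chromatids, at -0.45 in R4KO_2 and -0.33 in R4KO_1. KIF2C and KIF18A fell, between -0.61 and -0.13, and ANLN, KIF14, KIF23 and PRC1 fell, between -0.65 and -0.26, over both knockouts. Replicate 3 of R4KO_1 lay lowest of its group for many members, as with KIF20A, and 39 members still fell without it.

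**Figure D2:**
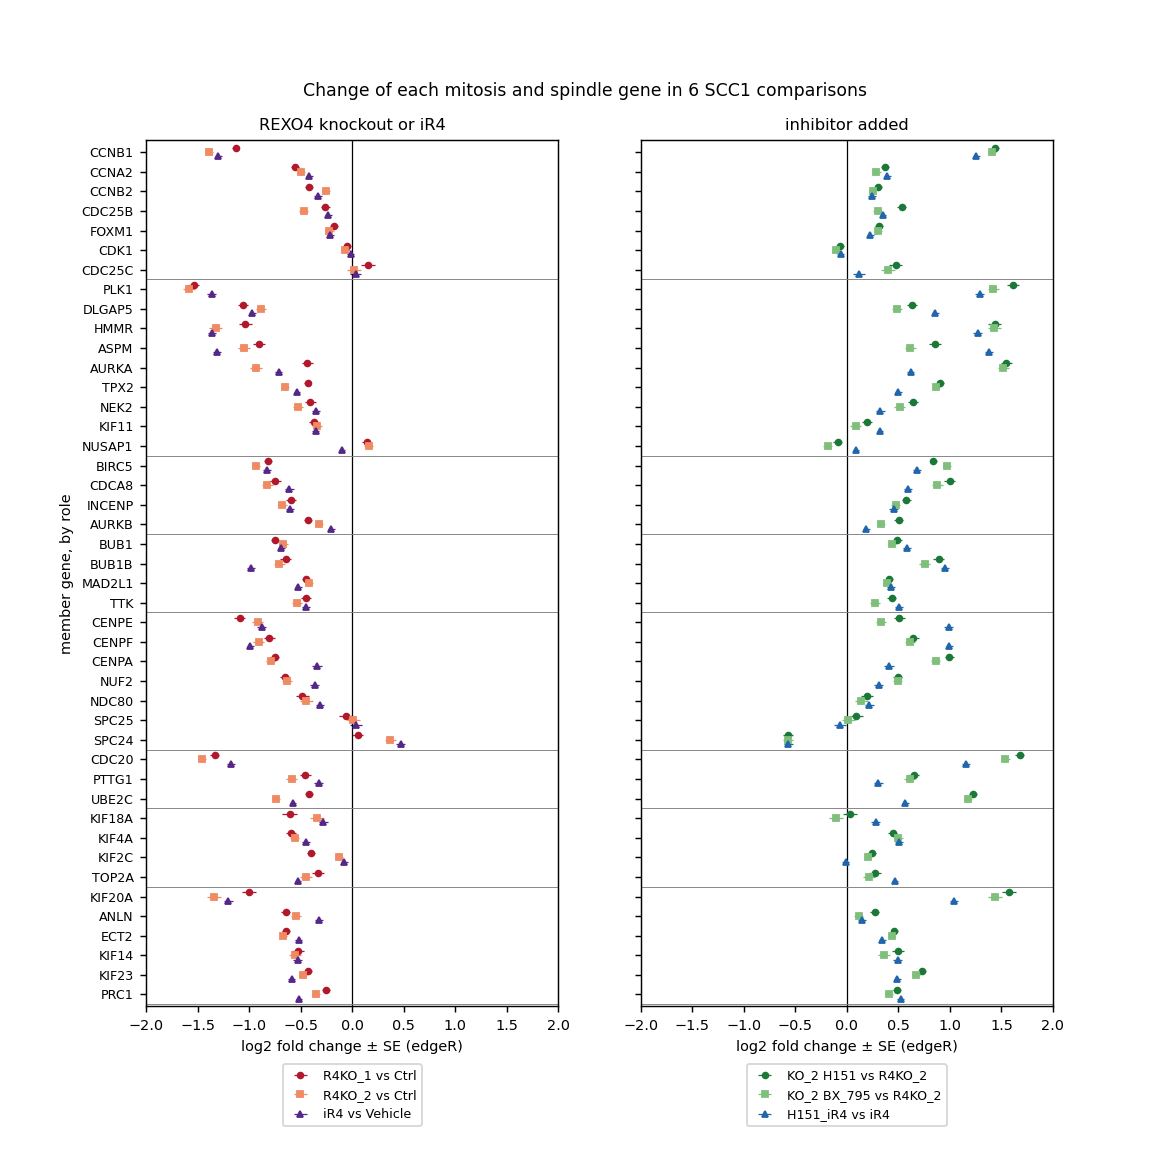
Log2 fold change ± SE of each member, on the horizontal axis, with members on the vertical axis in role blocks. The left panel gives R4KO_1 and R4KO_2 against Ctrl and iR4 against Vehicle, where PLK1 lies between -1.58 and -1.37, and the right panel gives H151 and BX_795 in KO_2 cells against R4KO_2 and H151_iR4 against iR4, where most members lie above 0.

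R4KO_2 was compared with R4KO_1 directly. Of the 44 members, 9 were lower in R4KO_2 and 6 higher, where 16.6% of all genes were lower and 15.1% higher. AURKA (ENSG00000087586, chr20:56369389-56392337, minus strand), a kinase of spindle poles, was at 106.5, 101.2 and 103.2 CPM in R4KO_2, against 159.9, 150.0 and 129.0 CPM in R4KO_1, a log2 fold change of -0.50 ± 0.06 (adjusted p = 6.05e-07). UBE2C was lower, at -0.32 ± 0.04, and KIF2C, a microtubule-depolymerising kinesin of centromeres, was higher by 0.27 ± 0.04. SPC24 was higher by 0.32 ± 0.05. Without replicate 3 of R4KO_1, 15 members were lower in R4KO_2.

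Other mitotic genes were looked at through lists of 119 genes that are not members. In R4KO_1 against Ctrl, where 31.4% of all genes fell and 33.0% rose, 78 fell and 13 rose, with a median of -0.25. In R4KO_2, where 32.2% of all genes fell and 34.0% rose, 78 fell and 16 rose, with a median of -0.21. Motors, spindle and cytokinesis genes outside the list fell throughout: 23 of 23 fell in R4KO_1, led by KPNA2, the importin that carries spindle factors, at -0.92, and 22 of 23 in R4KO_2. Condensin and cohesin genes also fell, 7 of 8 and 10 of 13 in R4KO_1, led by SMC4, a core ATPase of condensin, at -0.89, and SGO2, a protector of cohesin at centromeres, at -0.55. All 4 further checkpoint genes fell there, MAD1L1 at -0.31. For the core and other cofactors of the anaphase-promoting complex, 10 of 17 fell and 2 rose, with FZR1 (CDH1), its activator in late mitosis and G1, at -0.74 and ANAPC11, its RING subunit, at 0.20.

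Other centromere and kinetochore genes were mixed, with 12 of 29 lower and 5 higher in R4KO_1. Beside this list and those below, 31.4% of all genes fell there and 33.0% rose. SKA2, of the SKA complex that tracks microtubules, fell, at -0.93, while DSN1, of the MIS12 complex that anchors the kinetochore, rose by 0.83. Among other entry and DREAM genes 8 of 17 fell and 4 rose, with BORA, the activator of Aurora A and PLK1, at -0.75 and MASTL (Greatwall), the kinase that blocks PP2A in mitosis, at 0.62. Centrosome and centriole genes had 4 of 8 lower and 2 higher, with SASS6, of the centriole cartwheel, at -0.53 and TUBG1, gamma-tubulin, at 0.20. The 34 genes of DNA replication and G1/S had medians nearer 0 than the members, at -0.11 in R4KO_1 (19 lower, 6 higher) and -0.10 in R4KO_2 (16 lower, 8 higher). In R4KO_2, 32.2% of all genes fell and 34.0% rose. UHRF1, a reader of hemimethylated DNA, fell most in R4KO_1, at -0.97, and E2F1 rose by 0.34.

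MKI67, the proliferation antigen Ki-67, which is not a member, fell, at -0.90 ± 0.05 in R4KO_2 and -0.85 ± 0.05 in R4KO_1. CDKN1A moved the other way. It was at 201, 244 and 217 CPM in R4KO_2 and 160, 195 and 242 CPM in R4KO_1, against 67.5, 72.6 and 71.2 CPM in Ctrl, with log2 fold changes of 1.65 ± 0.10 in R4KO_2 and 1.498 ± 0.10 in R4KO_1. Of 10 genes for CDK inhibitors and growth arrest, 6 rose and 1 fell in R4KO_2, where 34.0% of all genes rose, with a list median of 0.60. In R4KO_1, 4 rose and 2 fell, where 33.0% of all genes rose, with a list median of 0.03, so the list as a whole was near the share of all genes there. Their part in the change of the members was not tested.

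**Figure D3:**
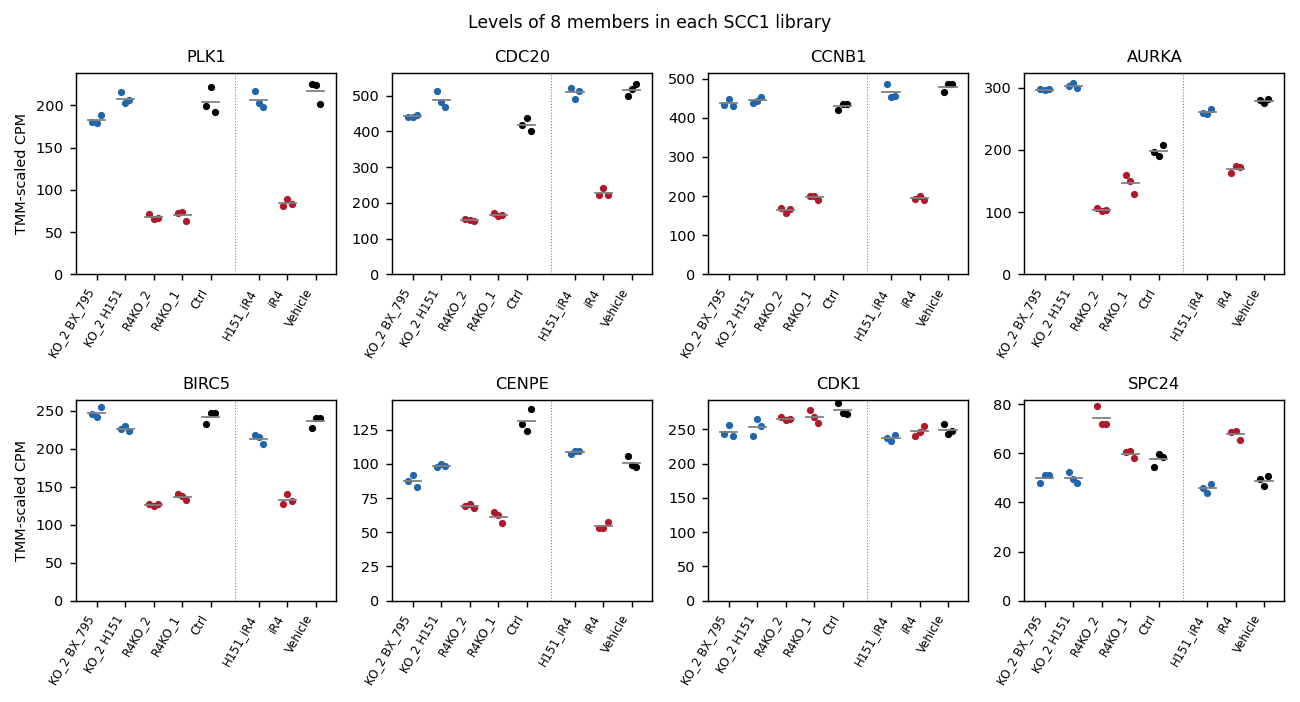
TMM-scaled CPM of 8 members in each library (points) with the group mean (line), the knockout experiment left and the iR4 experiment right of the dotted line in each panel, red for R4KO_2, R4KO_1 and iR4, blue for groups with an inhibitor and black for Ctrl and Vehicle. PLK1, CDC20, CCNB1, BIRC5 and CENPE are low in the red groups, CDK1 stays between 232.5 and 289.1 CPM in all groups, and SPC24 is highest in R4KO_2 and iR4.

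KO_2 cells with H151, which inhibits STING, or BX_795, which inhibits TBK1, were compared with R4KO_2 cells with vehicle. The titles name the cells KO_2 with an inhibitor and R4KO_2 with vehicle, and both were taken as the same knockout. If they are not, a difference between the cells and a difference from a drug cannot be told apart. No group held Ctrl cells with an inhibitor. What a drug does to SCC1 cells in general and to the knockout's change therefore cannot be told apart. Nearly all members were higher than in R4KO_2 with vehicle. With H151, 39 rose and 1 fell, where 35.7% of all genes rose and 37.0% fell, with a member median of 0.50 beside -0.01 over all genes. With BX_795, 38 rose and 3 fell, where 36.4% of all genes rose and 37.1% fell, with a median of 0.43 beside -0.01. The summed level of the members was 8827 ± 100.3 CPM with BX_795 and 9307 ± 27.5 CPM with H151, against 6037 ± 91.4 CPM in R4KO_2 (SD, n = 3 each). These comparisons share the R4KO_2 libraries with the comparison of R4KO_2 and Ctrl. REXO4 itself rose in the same comparisons, by 1.57 ± 0.10 with BX_795 and 1.5 ± 0.10 with H151, and stayed below Ctrl. Its part in the rise of the members was not tested.

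CDC20 had the largest rise, standing at 439, 440.5 and 446 CPM with BX_795 and 511, 481 and 467 CPM with H151, against 155, 153 and 148 CPM in R4KO_2. The log2 fold changes were 1.54 ± 0.04 (adjusted p = 4.23e-18) with BX_795 and 1.68 ± 0.04 (adjusted p = 9.15e-19) with H151. PLK1 was at 180.3, 179.7 and 188.1 CPM with BX_795 and 215, 203 and 206 CPM with H151, a rise of 1.422 ± 0.06 with BX_795 and 1.61 ± 0.06 with H151. AURKA rose by 1.52 ± 0.05 with BX_795 and 1.55 ± 0.05 with H151, KIF20A by 1.44 with BX_795 and 1.57 with H151, HMMR by 1.43 with BX_795 and 1.44 with H151, CCNB1 by 1.41 with BX_795 and 1.43 with H151, and UBE2C by 1.17 with BX_795 and 1.23 with H151. These 7 genes rose at least 2-fold with either inhibitor. The passenger complex and the checkpoint rose as whole groups, with BIRC5 at 0.97 with BX_795 and 0.84 with H151, CDCA8 at 0.88 with BX_795 and 0.996 with H151, BUB1B at 0.75 with BX_795 and 0.89 with H151, and BUB1 at 0.43 with BX_795 and 0.49 with H151. CENPE rose by 0.33 with BX_795 and 0.51 with H151, CENPF by 0.61 with BX_795 and 0.65 with H151, KIF4A by 0.50 with BX_795 and 0.44 with H151, TOP2A by 0.22 with BX_795 and 0.28 with H151, CCNA2 by 0.29 with BX_795 and 0.37 with H151, and ECT2 by 0.43 with BX_795 and 0.46 with H151.

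A few members did not rise. SPC24 fell with both, at -0.57 ± 0.05 each. CDK1 fell, at -0.11 ± 0.04, with BX_795 and was at -0.07 ± 0.04 with H151, and NUSAP1 fell, at -0.19 ± 0.05, with BX_795 and was at -0.09 ± 0.05 with H151. KIF18A, a kinesin that damps chromosome movements, was at -0.11 ± 0.07 with BX_795 and 0.03 ± 0.07 with H151, and SPC25 at 0.01 with BX_795 and 0.09 with H151, none past the test. KIF11, the motor that pushes spindle poles apart, was at 0.08 ± 0.05 with BX_795, short of the test, and rose by 0.20 ± 0.05 with H151. Among the 119 other mitotic genes 67 rose and 29 fell with BX_795, and 68 rose and 18 fell with H151. Over all genes, 36.4% rose and 37.1% fell with BX_795, and 35.7% rose and 37.0% fell with H151.

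Against Ctrl, the treated knockout cells lay on both sides. With BX_795, 20 members were lower and 5 higher, where 28.0% of all genes were lower and 27.7% higher, and with H151, 17 were lower and 14 higher, where 26.9% were lower and 26.0% higher. The member medians were -0.03 with BX_795 and 0.04 with H151. AURKA stood above Ctrl, at 298, 296 and 298 CPM with BX_795 and 302, 307 and 299.5 CPM with H151, against 196.3, 190.8 and 207.7 CPM in Ctrl. Its log2 fold change was 0.58 ± 0.05 with BX_795 and 0.61 ± 0.05 with H151, beside 0.43 ± 0.04 with BX_795 and 0.49 ± 0.04 with H151 for UBE2C and 0.42 ± 0.07 with BX_795 and 0.49 ± 0.07 with H151 for CDC25C. CENPE stayed below Ctrl, at 87.5, 91.8 and 83.0 CPM with BX_795 and 97.9, 99.7 and 98.7 CPM with H151, or -0.59 ± 0.05 with BX_795 and -0.41 ± 0.05 with H151. KIF18A was at -0.45 with BX_795 and -0.31 with H151, and ANLN (anillin), the scaffold of the contractile ring, at -0.43 with BX_795 and -0.28 with H151. With upper-quartile scaling 14 members were lower and 15 higher with H151. Without replicate 3 of Ctrl, 11 members were lower with H151 than in Ctrl.

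BX_795 was also set against H151 in KO_2 cells. With BX_795, 9 members were lower and 1 higher, where 3.99% of all genes were lower and 5.67% higher, and the member median was -0.07. CDC25B, a CDK1-activating phosphatase, was at 261.9, 257.9 and 271.9 CPM with BX_795, against 316.9, 306.2 and 307.7 CPM with H151, a log2 fold change of -0.23 ± 0.04 (adjusted p = 0.000878). ASPM, a spindle pole protein, was lower, at -0.24 ± 0.06, and AURKB at -0.17 ± 0.04. BIRC5 was the member that was higher, by 0.13 ± 0.04. The number lower depended on the libraries used: it was 19 in a fit of these 6 libraries alone, and fell to between 2 and 8 when a library was left out of the fit of 15. Replicate 1 of H151 gave 2 when left out, replicates 1 and 3 of BX_795 gave 3 each, and replicates 2 and 3 of H151 gave 4 each.

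The iR4 experiment compared iR4 with Vehicle in separate libraries. There 40 of the 44 members fell and 1 rose, where 34.8% of the 14000 genes tested fell and 37.1% rose, and 6 members fell at least 2-fold. The member median was -0.52 beside 0.02 over all genes, and the summed level was 6204 ± 76.3 CPM in iR4, against 9232 ± 53.1 CPM in Vehicle (SD, n = 3 each). All 9 spindle genes, all 4 of the passenger complex, all 4 of the checkpoint and all 6 of cytokinesis fell. The summed squamous markers were at 3353 ± 26.6 CPM in iR4 and 3438 ± 83.5 CPM in Vehicle. Fibroblast markers summed to 32.9 to 38.6 CPM in iR4, against 21.9 to 25.0 CPM in Vehicle, and skeletal muscle markers to 25.2 to 28.4 CPM in iR4, against 17.8 to 20.5 CPM in Vehicle, and neither pair of groups overlapped. REXO4 fell, at -0.64 ± 0.04. The part of these differences in the change of the members was not tested.

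PLK1 was at 80.9, 88.7 and 83.2 CPM in iR4, against 225.2, 223.6 and 202.0 CPM in Vehicle, a log2 fold change of -1.37 ± 0.05 (adjusted p = 1.41e-18). HMMR was at 48.6, 45.9 and 46.7 CPM in iR4, against 119.0, 119.5 and 124.2 CPM in Vehicle, or -1.36 ± 0.04. ASPM was at 59.1, 61.5 and 59.6 CPM in iR4, against 152.0, 148.0 and 148.8 CPM in Vehicle, or -1.32 ± 0.04. None of these groups overlapped. CCNB1 fell, at -1.30 ± 0.04, KIF20A at -1.20 ± 0.04 and CDC20 at -1.18 ± 0.04, which completes the 6 that fell at least 2-fold. CENPF fell, at -0.99, BUB1B at -0.98, CENPE at -0.88, BIRC5 at -0.83, BUB1 at -0.69, CDCA8 at -0.61, UBE2C at -0.58, TOP2A at -0.53, ECT2 at -0.52, KIF4A at -0.45 and CCNA2 at -0.42.

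SPC24 was the member that rose, at 68.7, 69.2 and 65.4 CPM in iR4, against 49.4, 46.7 and 50.7 CPM in Vehicle, or 0.47 ± 0.05. CDK1 at -0.01 ± 0.03, CDC25C at 0.03 ± 0.06 and SPC25 at 0.04 ± 0.06 did not pass the test. NUSAP1 fell, at -0.10 ± 0.03. CDKN1A was at 167, 170 and 166 CPM in iR4, against 38.5, 40.8 and 42.6 CPM in Vehicle, a rise of 2.04 ± 0.04, and MKI67 fell, at -0.94 ± 0.03. Of the 119 other mitotic genes 70 fell and 25 rose, among them PSRC1, a microtubule-binding protein, at -1.18, DSN1 at 0.73 and MASTL at 0.69. In the G1/S list 15 of 34 were lower and 11 higher, where 34.8% of all genes were lower and 37.1% higher, with a list median of -0.05.

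**Figure D4:**
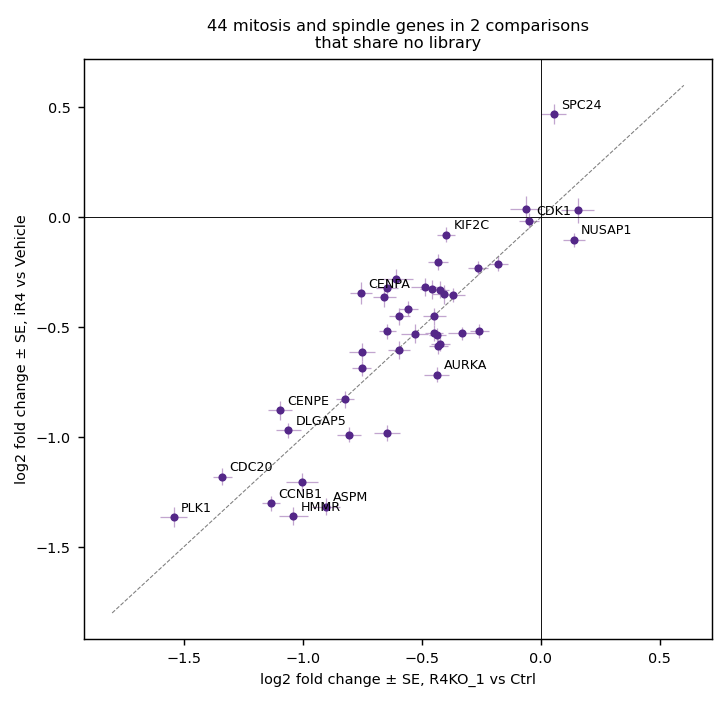
Log2 fold change ± SE of the 44 members in R4KO_1 against Ctrl (horizontal axis) and in iR4 against Vehicle (vertical axis), with the line of equal change dashed. Pearson's r is 0.865 and 42 members have the same sign, with PLK1 and CDC20 at the lower left and SPC24 at the upper right.

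The knockout and iR4 comparisons share no library. Across the 44 members, Pearson's r of the log2 fold changes was 0.865 between R4KO_1 and iR4, with 42 of the same sign, and 0.933 between R4KO_2 and iR4, with 43 of the same sign. Over the 13839 genes tested in both experiments r was 0.713 for R4KO_1 and iR4 and 0.845 for R4KO_2 and iR4. These correlations run across genes, which are not independent replicates. The differences in effect were tested in a fit of all 24 libraries, as the iR4 effect minus the mean of both knockout effects: 12 members had a positive difference and 5 a negative one past the test, where 14.7% of the 14585 genes tested were positive and 13.1% negative. CENPA had a positive difference of 0.43 ± 0.06, with a log2 fold change of -0.35 in iR4. ASPM had a negative one of -0.34 ± 0.07 and BUB1B of -0.30 ± 0.06.

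H151_iR4 was compared with iR4 to ask what differs with the STING inhibitor there. No group held Vehicle cells with H151 alone, so its effect on SCC1 cells in general and on the iR4 change cannot be told apart. Of the members, 39 rose and 1 fell, where 35.1% of all genes rose and 36.3% fell, with a member median of 0.46 beside -0.01 over all genes. ASPM was at 150, 158 and 159 CPM in H151_iR4, against 59.1, 61.5 and 59.6 CPM in iR4, a log2 fold change of 1.38 ± 0.04 (adjusted p = 3.36e-20). PLK1 rose by 1.29 ± 0.05, HMMR by 1.27 ± 0.04, CCNB1 by 1.26 ± 0.04, CDC20 by 1.16 ± 0.04 and KIF20A by 1.04 ± 0.04, and these 6 genes rose at least 2-fold. SPC24 fell, at -0.57 ± 0.05, and CDK1 at -0.06, KIF2C at -0.01, SPC25 at -0.07 and CDC25C at 0.12 did not pass the test. CDKN1A fell, at -1.78 ± 0.04, and stood between 47.3 and 51.4 CPM in H151_iR4.

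The summed level of the members was 8914 ± 28.6 CPM in H151_iR4, against 9232 ± 53.1 CPM in Vehicle. Against Vehicle, 9 members were lower and 1 higher in H151_iR4, where 9.58% of all genes were lower and 8.71% higher, with a member median of -0.04. The lower ones included ANLN and ECT2, at -0.18 each, KIF20A at -0.16 and BIRC5 at -0.15. The number lower was 5 without replicate 2 of H151_iR4 and likewise without replicate 1 or 3 of Vehicle. The squamous markers summed to 2410 ± 83.3 CPM in H151_iR4, lower than in Vehicle, and the part of that difference was not tested.

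The effect of H151 in iR4 cells minus its effect in KO_2 cells was tested across all 24 libraries. It was negative for 19 members and positive for 7, where 27.0% of all genes were negative and 23.7% positive. AURKA, which rose by 0.62 ± 0.03 in iR4 cells and 1.55 ± 0.05 in KO_2 cells, had a difference of -0.94 ± 0.07 (adjusted p = 1.03e-12). UBE2C had -0.67 ± 0.05 and TPX2, the activator of Aurora A on the spindle, -0.41 ± 0.04. ASPM and CENPE had positive differences of 0.51 ± 0.07 and 0.47 ± 0.07. The 2 H151 comparisons share no library, and across the 44 members their log2 fold changes had r = 0.803, with 41 of the same sign, beside 0.639 over 13839 genes.

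The mouse comparison asked how R4KO tumors differ from Wt tumors. None of the 43 members passed the edgeR test, where 0.0% of the 14523 genes tested did, with 0 members at an unadjusted p under 0.05 (4.51% of all genes) and 0 by DESeq2 (1.11% of all genes). The log2 fold change was positive for 26 members and negative for 17, with a median of 0.13 beside 0.01 over all genes. Summed over the members, the R4KO tumors held 2871 and 1714 CPM, against 2501 and 1779 CPM in the Wt tumors, so each group had one higher and one lower tumor. The higher was replicate 1 in both groups. Mki67 was higher in replicate 1 too, at 497.0 against 233.1 CPM in R4KO and 650.6 against 152.3 CPM in Wt. Cdkn1a was lower there, at 111.3 against 368.1 CPM in R4KO and 129.5 against 667.0 CPM in Wt. The median of the members was -0.29 without replicate 1 of R4KO. With 2 tumors a group, the standard error of a single member ran up to 0.71 on the log2 scale, as for Bub1. Changes of the size seen in SCC1 were not detectable for such members at this precision. The 6 members that fell at least 2-fold in iR4 had smaller standard errors. Plk1 was at 0.36 ± 0.40, Cdc20 at 0.19 ± 0.35, Kif20a at 0.42 ± 0.35 and Ccnb1 at 0.48 ± 0.47. Hmmr was at -0.03 ± 0.52 and Aspm at -0.52 ± 0.51, and none passed the test.

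Of the 3 members with the lowest p, Cenpf was at 44 and 49.2 CPM in R4KO tumors, against 130.6 and 45.2 CPM in Wt tumors, a log2 fold change of -0.92 ± 0.55 (adjusted p = 0.999). It was 0.04 without replicate 1 of Wt. Ccnb2 was at 48.1 and 37.0 CPM in R4KO tumors, against 19.9 and 38.3 CPM in Wt tumors, or 0.55 ± 0.43. Kif20a was at 37.0 and 28.2 CPM in R4KO tumors, against 27.1 and 21.5 CPM in Wt tumors, or 0.42 ± 0.35. Kif20a was the only member with both R4KO tumors above both Wt tumors, and Nek2, a centrosome kinase, the only one with both below, where 16.4% and 14.2% of all genes were so placed. Plk1 was at 57.4 and 31.3 CPM in R4KO tumors, against 33.3 and 35.7 CPM in Wt tumors. Rexo4 itself was at 17.4 and 14.9 CPM in R4KO tumors, against 31.1 and 30.3 CPM in Wt tumors.

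**Figure D5:**
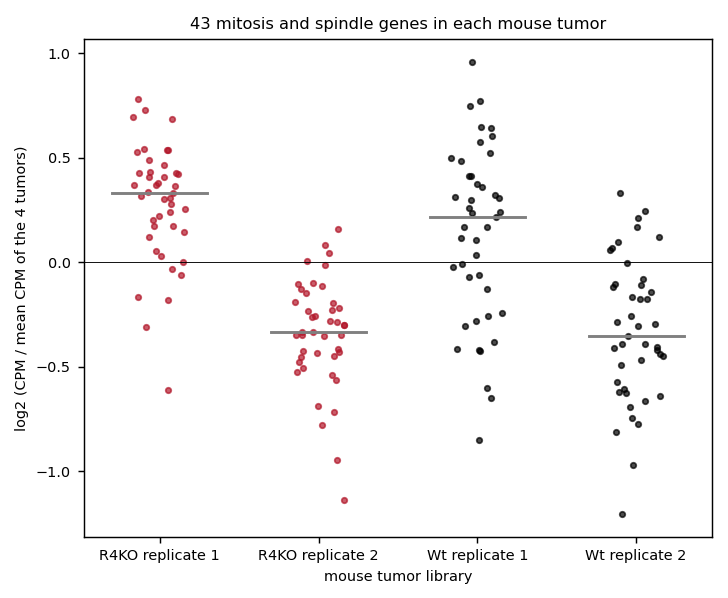
Log2 of CPM over the mean of the 4 tumors for each of the 43 members (points), with the median of each tumor (grey line), for the R4KO and Wt tumors on the horizontal axis. The medians are 0.33 and -0.33 in the R4KO tumors and 0.22 and -0.35 in the Wt tumors, so each group has one higher and one lower tumor.

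The tumors also differed in markers of other cell types. The 9 squamous markers summed to 30280 and 44220 CPM in the R4KO tumors, against 51380 and 69150 CPM in Wt tumors, with all 9 detected in each. The 7 skeletal muscle markers ranged from 35.6 to 2628 CPM in R4KO tumors, against 18.5 to 316.4 CPM in Wt tumors, and the 9 leukocyte markers from 92.6 to 176.9 CPM in R4KO tumors, against 36.2 to 120.3 CPM in Wt tumors. The 7 fibroblast markers summed to 609.4 and 1372 CPM in R4KO tumors, against 2150 and 1093 CPM in Wt tumors, the 5 erythroid markers to 15.2 and 118 CPM in R4KO tumors, against 53.2 and 233.3 CPM in Wt tumors, and the 5 endothelial markers to 148.3 and 180.5 CPM in R4KO tumors, against 250.9 and 185.0 CPM in Wt tumors. Their part in the values of the members was not tested.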

How the data were processed

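Per the labels' protocols, TRIzol extracts were cleared of DNA with DNase I, mRNA was captured with oligo(dT), and libraries were read on an Illumina HiSeq instrument. Alignment with HISAT2 (2.2.1) to hg38 or mm10 and counting with featureCounts (2.0.1) are named in the submitters' processing notes, beside DESeq2 (1.42.0) and the quality tools Trim Galore (0.6.4) and FastQC (0.11.9). No source used here gives the annotation or strand setting of the counting. Each deposited file holds whole-number read counts per gene, unnormalised, as the authors made them. IDs listed more than once, under several symbols with the same count, were kept once.

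The counts went into edgeR 4.0.16 (R 4.3.3): filterByExpr with a minimum count of 10, TMM factors, and the quasi-likelihood test with Benjamini-Hochberg adjustment at 0.05 over all genes tested. The knockout experiment (15 libraries), the iR4 experiment (9) and the mouse tumors (4) were fitted separately, and differences between effects in a fit of all 24 SCC1 libraries. The procedure was tested on simulated data. CPM values use TMM factors within each experiment. All pairs of replicates differed by more than sampling noise (lowest chi-square per degree of freedom 1.66). Gene positions and exon lengths came from GENCODE v29, where 250 of 250 listed IDs matched.

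The members and gene lists were chosen with earlier results of these data known. Named were the 2 members of each role group with the largest mean size of change over R4KO_1, R4KO_2 and iR4, members not called in the majority direction, the 3 with the lowest p in the secondary comparisons, in the differences and in mouse, and from each other list the largest rise and fall in R4KO_1. DLGAP5, INCENP, PSRC1 (not a member) and other genes given beyond that rule were named after their values were seen. Other settings tried were DESeq2, RLE or upper-quartile factors in place of TMM, no filter, a filter at 1 CPM, a replicate block, only the groups compared, and leaving out each library. Replicate numbers did not pair the SCC1 samples, and with 2 tumors a group pairing could not be judged in mouse.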

Additional observations from a re-analysis of the deposited data

Results flagged for a closer look

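Both results listed here are differences between effects, each tested as such in the fit of all 24 SCC1 libraries with edgeR. The iR4 effect minus the mean knockout effect was past the test for 12 members in the positive direction and 5 in the negative one. Over all genes, 14.7% were positive and 13.1% negative. The members included CENPA at 0.43, NUF2 at 0.28 and ASPM at -0.34. The effect of H151 in iR4 cells minus its effect in KO_2 cells was past the test for 7 members in the positive direction and 19 in the negative one. Over all genes, 23.7% were positive and 27.0% negative. The members included AURKA at -0.94, UBE2C at -0.67 and TPX2 at -0.41. The experiments were separate sets of libraries, so a difference between experiments and a difference between the treatments cannot be told apart.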

How the results depend on the processing

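With a library left out, the number of members that fell was 39 each time in R4KO_1 and in R4KO_2, and 39 to 40 in iR4. The number that rose over R4KO_2 was 36 to 38 with BX_795 and 38 to 40 with H151 when a library was left out, and 38 to 40 for H151_iR4 over iR4. Smaller contrasts moved more, and the cause was not tested. With a library left out, members lower in R4KO_2 than in R4KO_1 numbered 7 to 15 (with all 9), with BX_795 than with H151 2 to 8 (9 with all, and 19 with only the groups compared), with H151 than in Ctrl 11 to 18 (with all 17), and in H151_iR4 than in Vehicle 5 to 7 (with all 9). Positive differences of the iR4 effect over the mean knockout effect numbered 8 to 13 (with all 12), and 8 with upper-quartile factors.

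Values near 0 changed sign. SPC25 in R4KO_2 was -0.001 with no filter and -0.047 to 0.064 with a library left out, and CDC25C there -0.026 to 0.05. KIF18A with H151 over R4KO_2 ran from -0.01 to 0.097, SPC25 with BX_795 from -0.011 to 0.051, PLK1 with H151 over Ctrl from -0.018 to 0.088 and BUB1B with BX_795 over Ctrl from -0.007 to 0.077. In iR4, CDK1 was 0.027 with upper-quartile factors and -0.039 to 0.005 with a library left out, and SPC25 -0.003 to 0.073. KIF2C in H151_iR4 over iR4 was 0.003 with no filter and -0.018 to 0.012 with a library left out. CENPF in the tumors ran from -1.49 to 0.041.

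The replicate numbers did not pair the SCC1 samples. For the tumors, deviations from the group mean correlated at 0.209 between replicates of the same number, and 2 tumors a group cannot decide on pairing. With the replicate block, 39 members fell in R4KO_1 and in R4KO_2 and 40 in iR4, 39 rose with H151 and 38 with BX_795. The mouse comparison is limited by its 2 tumors a group.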
